A study of Homo sapiens with 6 samples.

Results

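Lung lineage and surfactant genes, 10 in all, were read in 3 human non-small cell lung cancer lines. They are the transcription factors NKX2-1, FOXA1, FOXA2, GATA6 and HOPX, the surfactant proteins SFTPB and SFTPD, the alveolar enzyme NAPSA, the phosphate transporter SLC34A2 and the airway secretoglobin SCGB3A1. They were chosen by name, as 10 of the 60671 genes in a table of raw read counts. HCC827, A549 and H1975 are cultured lung adenocarcinoma lines. HCC827 and H1975 carry mutant EGFR. Each line was given AL-X, the compound 9α,11α-dihydroxy-kaurenoic acid, at 10 µg/mL for 48 h, or its solvent DMSO as the control. Each line gave 1 AL-X and 1 DMSO library of poly(A) RNA, 6 libraries in all. Each line is a single cultured population, so nothing here measures the spread between cultures of a line. A lower count in such a library can mean fewer cells with the transcript or less transcript per cell, and these cannot be told apart.

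NKX2-1 is the homeodomain factor that marks the lung and thyroid lineages and activates surfactant genes. FOXA1 and FOXA2 are forkhead factors that open chromatin in the lung endoderm, and GATA6 is a zinc finger factor of the same tissue. Alveolar type 2 cells make surfactant, the film of lipid and protein that keeps alveoli open, while type 1 cells form the thin surface for gas exchange. HOPX, a homeodomain protein that lacks DNA binding, marks type 1 cells.

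Library totals ranged from 98139178 to 121552821 counts with AL-X and from 104648304 to 126840915 counts with DMSO. A count of 0 therefore allows at most 0.0306 counts per 1e6, by the limit of 3 counts in the smallest library, and at most 0.0443 on the TMM scale used for levels. Genes of the mitochondrial genome took 0.0201% to 0.656% of counts with AL-X, against 6.41% to 6.87% with DMSO. The part of this difference in the results was not tested, but with those genes left out before scaling the across-line log2 fold of NKX2-1 was -2.90. Scaling factors of the trimmed mean of M values (TMM) were 0.557, 1.27 and 0.903 with AL-X in A549, HCC827 and H1975, against 1.12, 1.17 and 1.199 with DMSO. Keratin transcripts KRT7, KRT8 and KRT18 were abundant in every library, whereas EPCAM had 99 counts with AL-X and 325 with DMSO in A549. The leukocyte markers PTPRC and CD3E had 0 counts in all 6 libraries.

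The upstream sequences of 4 genes that were lower in count with AL-X in HCC827 are shown, since NKX2-1 and FOXA factors are known to act on lung promoters. HOPX and NAPSA were lower there too but are not shown. All 4 sequences hold a match to the letters below. SFTPB and SLC34A2 each have a further start site without a match, and NKX2-1 a further one with matches, which are not shown. The 4 sequences come from RefSeq start sites on GRCh38.p14 and run 5′ to 3′ on the strand of the gene. Each ends before the RefSeq start site it belongs to and holds no base that GENCODE 29 marks as UTR of that gene, but these genes also have transcripts that start further upstream. Capitals mark the forkhead-type letters TGTTTGC or TGTTTGT and the NKX2-1-type letters CTCAAG, on either strand.
NKX2-1: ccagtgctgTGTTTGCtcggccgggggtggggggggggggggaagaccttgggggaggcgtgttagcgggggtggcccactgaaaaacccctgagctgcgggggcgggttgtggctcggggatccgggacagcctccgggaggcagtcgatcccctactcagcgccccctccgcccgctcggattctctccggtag
FOXA1: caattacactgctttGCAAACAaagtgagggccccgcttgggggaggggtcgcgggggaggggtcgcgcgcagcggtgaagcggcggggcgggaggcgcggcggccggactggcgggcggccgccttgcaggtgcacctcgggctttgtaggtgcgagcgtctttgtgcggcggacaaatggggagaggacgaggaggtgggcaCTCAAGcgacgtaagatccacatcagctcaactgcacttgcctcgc
SFTPB: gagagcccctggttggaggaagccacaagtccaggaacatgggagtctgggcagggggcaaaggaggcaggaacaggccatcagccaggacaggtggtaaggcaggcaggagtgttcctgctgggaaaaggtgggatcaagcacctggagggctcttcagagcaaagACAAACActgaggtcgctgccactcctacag
SLC34A2: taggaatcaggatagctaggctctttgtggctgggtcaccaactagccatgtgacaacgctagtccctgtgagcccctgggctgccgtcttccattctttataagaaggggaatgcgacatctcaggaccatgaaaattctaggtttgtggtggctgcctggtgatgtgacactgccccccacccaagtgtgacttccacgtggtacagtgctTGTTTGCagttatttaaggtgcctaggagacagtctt

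The NKX2-1 sequence is chr14:36520287-36520482 on the minus strand, inside an intron of a longer NKX2-1 transcript. The FOXA1 sequence is chr14:37595250-37595499 on the minus strand, and 99 of its bases are exonic in another FOXA1 transcript. The SFTPB sequence is chr2:85668252-85668449 on the minus strand and the SLC34A2 sequence chr4:25656214-25656463 on the plus strand, and both are intronic in longer transcripts of their own gene. RefSeq windows of 300 bases around a start site were matched for 9 genes, in 14 windows, and FOXA2 was not matched. Both strands were also searched for a further forkhead form, TGTTTAC, for a further form for NKX2-1, TCAAGTG, which can overlap the shorter one, and for the GATA form AGATAA. At least one of these 6 forms was found in 8 of the 14 windows. Among these 8, the GATA6 window and the SFTPB window held only TGTTTGT. The share of all windows with at least one of the 6 forms was not taken, so the 8 has no matching background. Over all 35116 windows of the same length, the forkhead form TGTTTGC was found in 3.89%, and the forms TGTTTGT and TGTTTAC were found in 5.23% and 3.42% of them. The NKX2-1 forms were found in 12.4% for the shorter and 2.48% for the longer, and the GATA form in 10.3%. The form TGTTTGT was added after the sequences had been seen. These matches describe the letters and say nothing on binding.

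The comparison of AL-X with DMSO asks how the compound changed the lung lineage programme. With its whole interval for counting error, the within-line log2 fold lay below 0 for 7 genes in HCC827, 6 in H1975 and 4 in A549. It lay above 0 for 1 gene in HCC827, 2 in H1975 and 1 in A549. The share of all genes with such intervals was not taken, so these counts have no background. HCC827 was the line with most of these transcripts. Its summed count over the 10 genes was 18947 with AL-X and 84747 with DMSO. In H1975 the sum was 4684 with AL-X and 22908 with DMSO, with NKX2-1 the largest part. A549 had 8352 counts with AL-X and 7761 with DMSO, most of it FOXA2. In all, 18 of the 60 counts were 0, and 6 of the 10 genes were at 0 with AL-X in A549.

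**Figure D1:**
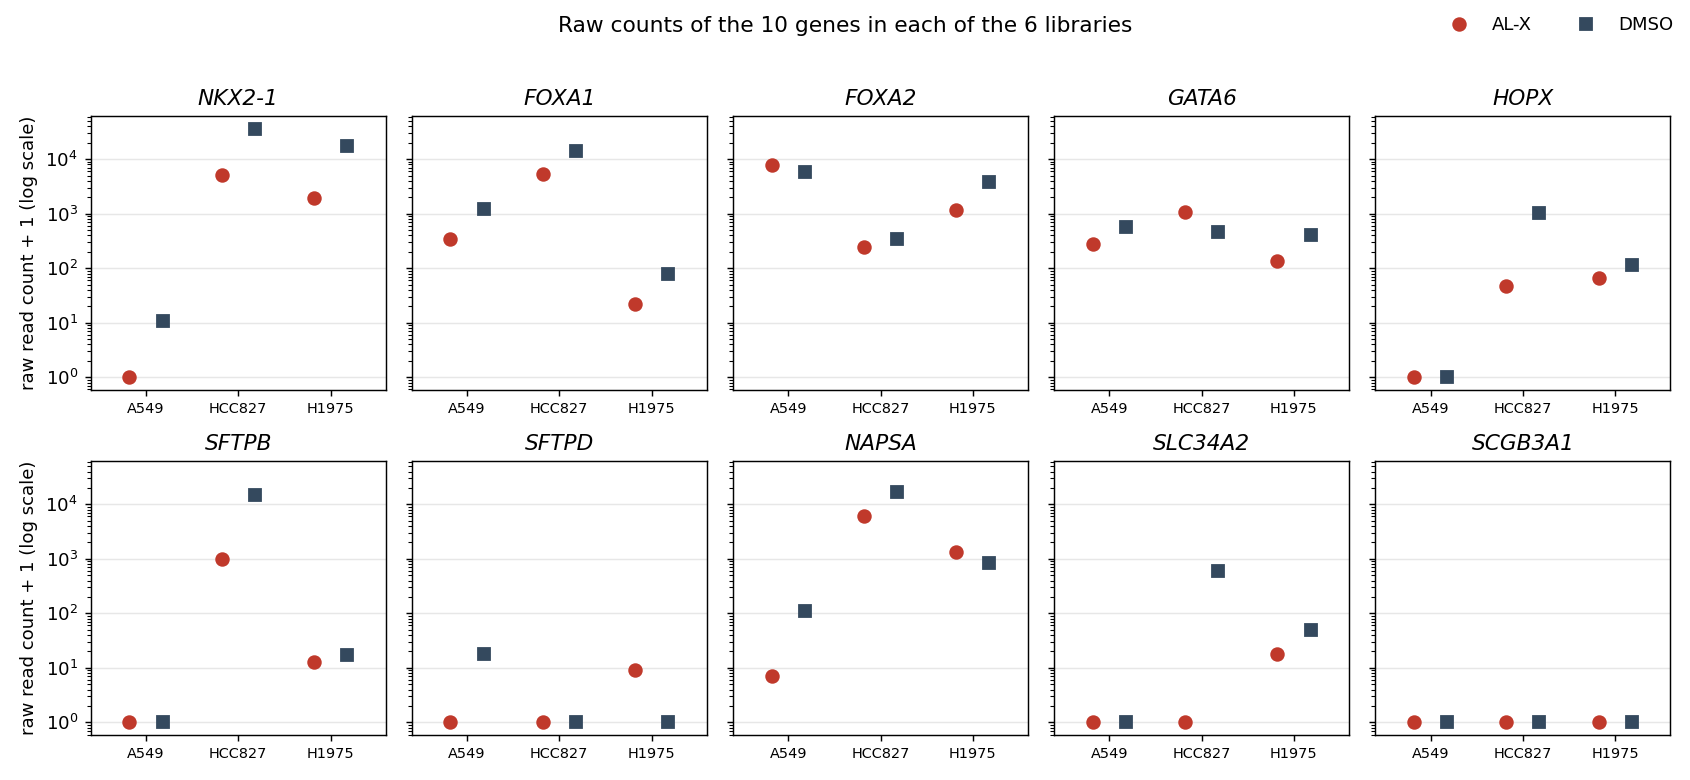
Raw counts of the 10 genes in the 6 libraries, with AL-X left of DMSO in each line, on a log axis of count + 1. NKX2-1 stands at 5064 with AL-X and 36483 with DMSO in HCC827, and the surfactant gene SFTPB at 975 with AL-X and 15064 with DMSO, while SCGB3A1 is at 0 throughout.

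NKX2-1 (ENSG00000136352, chr14:36516392-36521149, minus strand, GENCODE 29 on GRCh38) had 5064 counts with AL-X and 36483 with DMSO in HCC827. It had 1905 with AL-X and 17681 with DMSO in H1975. In A549 it had 0 counts with AL-X and 10 with DMSO. NKX2-1 was thus lower with AL-X in every line, from a high level in HCC827 and H1975 and from near the detection limit in A549. After TMM scaling the count was 6.10-fold lower in HCC827, a log2 fold of -2.61 with an exact binomial 95% interval of -2.65 to -2.57 for counting error only. In H1975 it was 7.49-fold lower, a log2 fold of -2.90 with an interval of -2.97 to -2.84. In A549 it was at least 1.84-fold lower, against a floor of 3 counts, and the counting interval, which also holds the error of the 10 DMSO counts, reaches a log2 fold of -0.31. Among genes with at least 5 TMM-scaled counts per 1e6 (CPM) in the higher library, only 3.11% in HCC827 and 2.02% in H1975 had a fold as low as that of NKX2-1 or lower.

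Over the 3 lines, the log2 fold of NKX2-1 was -2.90 ± 0.58 (SE, n = 3 pairs), lower in 3 of 3 lines. With edgeR's quasi-likelihood test and Benjamini-Hochberg adjustment over all genes tested, the adjusted p was 0.0690, which misses the threshold of 0.05. The same test without A549 gave -2.71 with an adjusted p of 0.0101, and DESeq2 and limma-voom gave adjusted p-values of 0.00042 and 0.0143 over all 3 lines. The edgeR adjusted p was 0.0981 without HCC827, 0.221 without H1975, 0.202 with library totals, 0.284 with no filter and 0.747 without the block for cell line. The call on NKX2-1 therefore depends on the tool and the setting, while in all of these the fold was negative. NKX2-1-AS1 runs opposite to NKX2-1 and shares 402 exonic bases with it. Its counts were 67 with AL-X and 1062 with DMSO in HCC827, 9 with AL-X and 202 with DMSO in H1975, and 0 in both A549 libraries. Since the strand setting of the counting is not given, reads of the overlap cannot be assigned to either gene.

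FOXA1 (ENSG00000129514, chr14:37589984-37596059, minus strand) had 5390 counts with AL-X and 13951 with DMSO in HCC827. It had 346 with AL-X and 1235 with DMSO in A549. H1975 had 21 with AL-X and 79 with DMSO. FOXA1 was lower with AL-X in all 3 lines, and H1975 held little of it. HCC827 had a log2 fold of -1.13, A549 one of -0.98 and H1975 one of -1.53. Over the lines it was -1.22 ± 0.52 (SE, n = 3 pairs), with an edgeR adjusted p of 0.287.

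FOXA2 (ENSG00000125798, chr20:22581005-22585455, minus strand) had 7717 counts with AL-X and 5821 with DMSO in A549. It had 245 with AL-X and 349 with DMSO in HCC827. H1975 had 1166 with AL-X and 3740 with DMSO. FOXA2 was therefore higher with AL-X in A549 and lower in the other lines. The log2 fold was 1.26 in A549, with a counting interval of 1.21 to 1.31, but 0.26 when library totals alone set the scale. It was -0.27 in HCC827 and -1.37 in H1975. Over the lines it was -0.14 ± 0.60 (SE, n = 3 pairs) with an edgeR adjusted p of 0.928.

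GATA6 (ENSG00000141448, chr18:22169443-22202528, plus strand) had 1082 counts with AL-X and 464 with DMSO in HCC827. It had 283 with AL-X and 570 with DMSO in A549. H1975 had 135 with AL-X and 402 with DMSO. Among the lineage factors it was the one that was higher with AL-X in HCC827. There it was 2.75-fold higher, a log2 fold of 1.46 with a counting interval of 1.30 to 1.62, and 95.2% of genes considered in HCC827 had a fold as high or lower. GATA6 reached 5 CPM in HCC827 only with AL-X, at 8.67 CPM against 3.15 with DMSO. The log2 fold was -0.15 in A549, with an interval of -0.37 to 0.053 that holds 0, and -1.25 in H1975. Over the lines the fitted log2 fold was 0.0045 ± 0.92 (SE, n = 3 pairs) with an edgeR adjusted p of 0.998. GATA6 shares 240 exonic bases with GATA6-AS1 on the opposite strand, which had 37 counts with AL-X and 22 with DMSO in HCC827.

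HOPX (ENSG00000171476, chr4:56647988-56681899, minus strand) had 46 counts with AL-X and 1013 with DMSO in HCC827. It had 65 with AL-X and 116 with DMSO in H1975, and 0 in both A549 libraries. Its level stood apart in the DMSO library of HCC827. It was 18.6-fold lower with AL-X there, a log2 fold of -4.16 with a counting interval of -4.68 to -3.79, and 1.02% of genes considered had a fold as low or lower. In H1975 the log2 fold was -0.52, with an interval of -0.99 to -0.076. The across-line log2 fold was -2.30 ± 1.50 (SE, n = 3 pairs), with an edgeR adjusted p of 0.468. The A549 pair, at 0 counts, holds no information on this fold, so only HCC827 and H1975 inform it. The fold was -0.41 without HCC827 and -4.09 without H1975.

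SFTPB (ENSG00000168878, chr2:85657314-85668741, minus strand) encodes the hydrophobic surfactant protein B, which spreads lipid at the air surface. It had 975 counts with AL-X and 15064 with DMSO in HCC827. In H1975 it had 12 with AL-X and 16 with DMSO, and in A549 0 in both libraries. SFTPB was thus counted mainly in HCC827, where it was 13.1-fold lower with AL-X. The log2 fold in HCC827 was -3.71 with a counting interval of -3.80 to -3.62, and 1.34% of genes considered had a fold as low or lower. In H1975 it was -0.09, with an interval of -1.32 to 1.07 that holds 0. Over the lines it was -2.07 ± 1.04 (SE, n = 3 pairs), with an edgeR adjusted p of 0.358. The A549 pair, at 0 counts, holds no information on this fold, so only HCC827 and H1975 inform it. The fold was -0.012 without HCC827 and -3.66 without H1975.

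NAPSA (ENSG00000131400, chr19:50358477-50365830, minus strand) encodes napsin A, the aspartic protease that processes surfactant protein B. It had 6145 counts with AL-X and 16829 with DMSO in HCC827. It had 6 with AL-X and 108 with DMSO in A549. In H1975 it had 1355 with AL-X and 826 with DMSO. NAPSA was lower with AL-X in HCC827 and A549 and higher in H1975. NKX2-1 was lower in all 3 lines, and a link between these genes was not tested. For NAPSA, HCC827 had a log2 fold of -1.21, A549 one of -3.09 and H1975 one of 1.02, which became 0.61 with library totals as the scale. Over the lines it was -1.03 ± 0.77 (SE, n = 3 pairs), with an edgeR adjusted p of 0.522, and it was -0.051 without A549 and -2.14 without H1975.

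SLC34A2 (ENSG00000157765, chr4:25648011-25678748, plus strand) encodes the sodium-phosphate cotransporter of type 2 cells. It had 0 counts with AL-X and 594 with DMSO in HCC827. In H1975 it had 17 with AL-X and 48 with DMSO, and in A549 0 in both libraries. The transcript was thus not detected with AL-X in the line that held most of it. Its count was at least 168-fold lower with AL-X in HCC827, against the floor of 3 counts, from 4.03 CPM in the DMSO library, and the counting interval reaches a log2 fold of -7.09. In H1975 the log2 fold was -1.11, with a counting interval of -2.08 to -0.36. The edgeR test over the lines gave a log2 fold of -4.67 ± 2.69 (SE, n = 3 pairs) with an adjusted p of 0.415, and -1.01 without HCC827. The A549 pair, at 0 counts, holds no information on this fold.

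SFTPD (ENSG00000133661, chr10:79937740-79982614, minus strand) encodes the collectin surfactant protein D. It had 0 counts with AL-X and 17 with DMSO in A549. In H1975 it had 8 with AL-X and 0 with DMSO, and in HCC827 0 in both libraries. This was at least 3.13-fold lower with AL-X in A549 and at least 3.30-fold higher in H1975, against the floor of 3 counts, with counting intervals that reach log2 folds of -1.19 and 1.08. At this depth SFTPD was near the detection limit in every library. SCGB3A1 (ENSG00000161055, chr5:180590103-180591540, minus strand), a secreted protein of airway club and goblet cells, had 0 counts in all 6 libraries. SFTPD and SCGB3A1 were removed by the filter on low counts, so 8 of the 10 genes were tested.

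**Figure D2:**
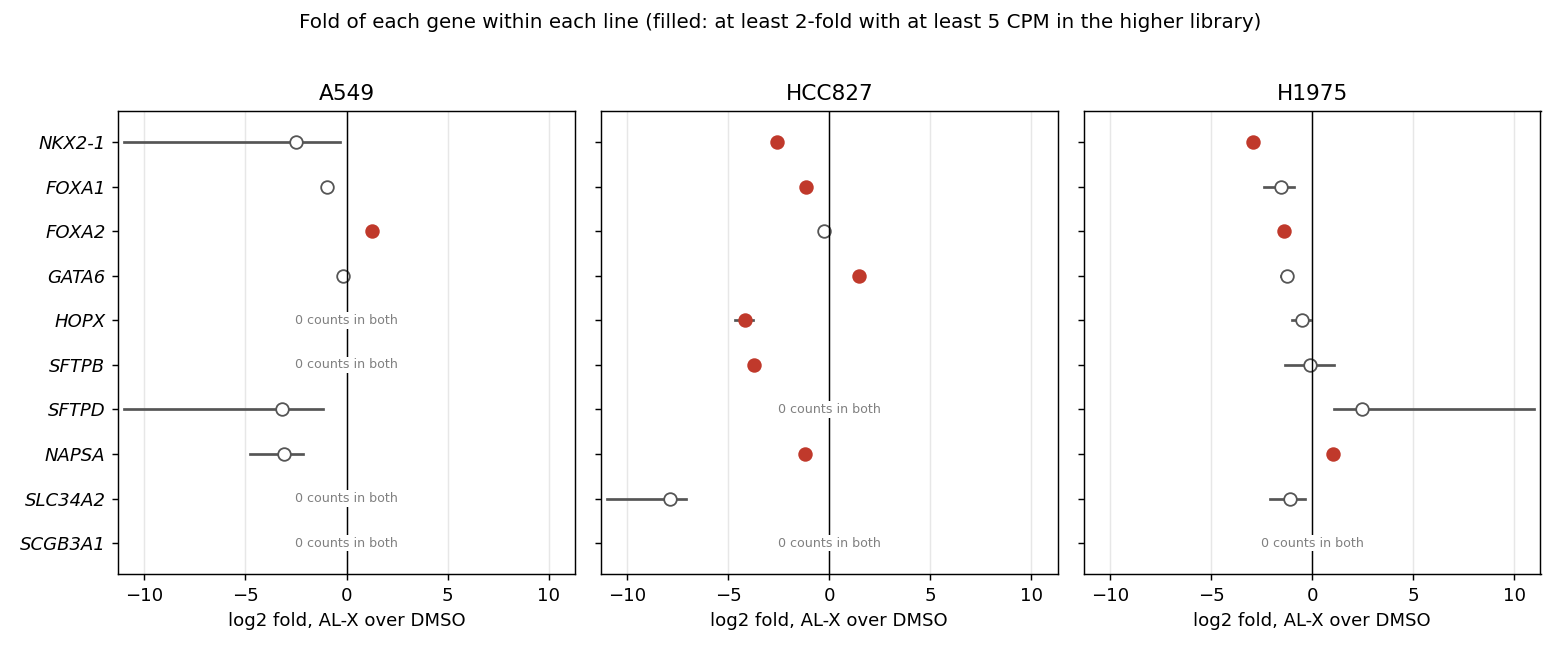
Log2 fold of AL-X over DMSO for each gene within each line, with exact binomial 95% intervals for counting error only. Filled points are those that differed at least 2-fold and reached 5 CPM. A point whose interval runs to the edge has 0 counts in 1 library, and its place depends on the added count of 2. NKX2-1 is left of 0 in all 3 panels, and GATA6 right of 0 in HCC827.

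Within a line there is 1 library per treatment, and no test was made. A difference was called where the fold reached 2 and the larger of the pair of levels reached 5 CPM. In HCC827, NKX2-1, FOXA1, HOPX, SFTPB and NAPSA were lower by this rule and GATA6 was higher, while the other 4 genes were under 5 CPM in both libraries. Of all 11938 genes considered in HCC827, 17.3% were lower and 10.7% higher. HOPX was considered only through its DMSO library and GATA6 only through its AL-X library. In H1975, NKX2-1 and FOXA2 were lower and NAPSA was higher, against 17.8% lower and 15.4% higher of 11818 genes considered. In A549, FOXA2 was higher and no gene of the 10 was lower, against 29.8% higher and 31.8% lower of 11973 genes considered. FOXA1 in A549 stood just under 2-fold, and its log2 fold there was -1.98 with library totals as the scale. Counts called higher made up 48.4% of the called genes in A549 and 46.3% in H1975, but 19.3% and 19.6% with library totals as the scale. That scale moved the median log2 fold of the genes considered by -1.0 in A549, 0.128 in HCC827 and -0.408 in H1975, and it changed the sign of no fold of the 10 genes within a line.

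**Figure D3:**
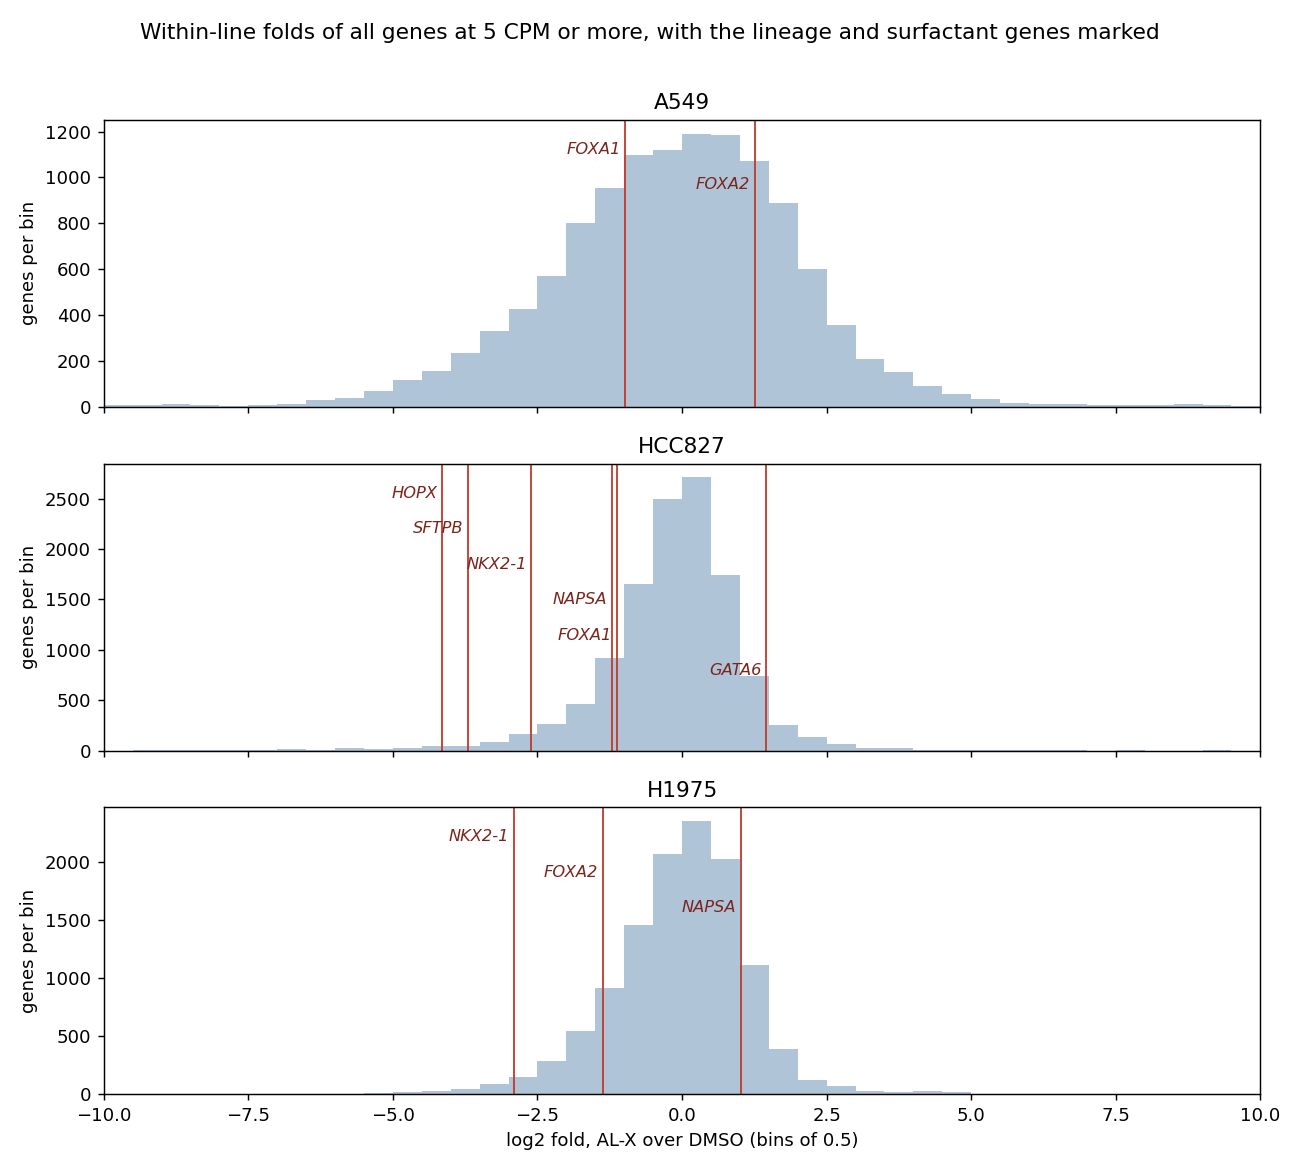
Distribution of the within-line log2 folds of all genes that reached 5 CPM in either library of the line, with the places of the named lineage and surfactant genes. In HCC827 the folds of HOPX, SFTPB and NKX2-1, at -4.16, -3.71 and -2.61, lie in the low tail.

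Across the lines, none of the 8 genes tested passed the threshold with edgeR's adjusted p, against 0.157% lower and 0.0983% higher of all 20344 genes tested. At an unadjusted p under 0.05, NKX2-1 and FOXA1 were lower, against 10.2% lower and 5.48% higher of all genes. The median across-line log2 fold of the 8 genes was -1.65, and that of all genes tested was -0.27. These 8 exclude the 2 genes with the lowest counts. DESeq2 and limma-voom called NKX2-1 lower, as given above.

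Whether HCC827 responded differently from A549 and H1975 was asked of an edgeR fit with a term for unequal response. That fit gives A549 and H1975 a single shared response and leaves 1 residual degree of freedom. None of the 8 genes passed, against 0.172% lower and 0.0885% higher of all genes. At an unadjusted p under 0.05, SFTPB and SLC34A2 were lower, against 3.38% lower and 4.81% higher of all genes. The smallest adjusted p was 0.266, for SLC34A2. For SFTPB the log2 difference in response was -3.61 ± 1.61 (SE) with an edgeR adjusted p of 0.508. For GATA6 it was 2.17 ± 1.71 (SE) with an edgeR adjusted p of 0.783. The lower counts of SFTPB, HOPX and SLC34A2 in HCC827 were therefore not shown to be a response that the other lines lack, where these genes were at or near 0. Both A549 libraries had 0 counts of these genes, so their difference in response compares HCC827 with H1975 alone. Fits centred on the other lines called none of the 8 genes either, against 0.182% lower and 0.0983% higher of all genes for A549, and 0% in both directions for H1975. At an unadjusted p under 0.05, A549 differed in FOXA2 and NAPSA, against 4.68% higher and 6.35% lower of all genes, and H1975 in NAPSA and SLC34A2, against 0.462% higher and 0.698% lower. For SLC34A2 the fits centred on H1975 and on HCC827 compare the same lines, so they are not separate results.

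Levels differed between the lines. In the same edgeR fit, with both libraries of a line as its samples, 5 of the 8 genes were higher in HCC827 than in the mean of A549 and H1975 and 1 was lower. Of all genes tested, 4.07% were higher and 1.53% lower, and at an unadjusted p under 0.05, which these same 6 genes met, 12% and 5.86%. On simulated counts this test also called 91 unchanged genes, a larger share of its calls than the 0.05 set for the adjusted p. FOXA1 was higher in HCC827 by 5.29 ± 0.55 log2 units (SE; edgeR adjusted p = 0.00041). NAPSA was higher by 5.12 ± 0.73 (SE; edgeR adjusted p = 0.0016). FOXA2 went the other way, at -4.25 ± 0.75 log2 units (SE; edgeR adjusted p = 0.00556), so the forkhead genes differed in opposite directions between these lines. GATA6 and SLC34A2 did not pass, at edgeR adjusted p-values of 0.660 and 0.320.

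NKX2-1, SFTPB and HOPX also passed, but here A549 weighs on the size, since SFTPB and HOPX were at 0 counts in both of its libraries. The log2 difference of NKX2-1 was 6.44 ± 0.58 (SE; edgeR adjusted p = 0.00023), and against H1975 alone it was 1.00 with an edgeR adjusted p of 0.317. For SFTPB the fitted difference was 11.67 ± 1.12 (SE; edgeR adjusted p = 0.00038), and against H1975 alone 7.95 with an edgeR adjusted p of 1.8e-05. For HOPX it was 6.28 ± 1.52 (SE; edgeR adjusted p = 0.0357), a call lost with library totals (adjusted p = 0.0696) and with no filter (0.120), and against H1975 alone 1.11 with an edgeR adjusted p of 0.784. Against H1975 alone, SFTPB thus passed the test, while NKX2-1 and HOPX did not. FOXA1 also passed against H1975 alone, at 7.49 log2 units, and against A549 alone, at 3.14. NAPSA passed at 3.04 against H1975 alone and 7.93 against A549 alone.

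Between genes, levels were compared per length, as CPM per kilobase of merged exons. In HCC827 with DMSO, NKX2-1 stood highest at 78.2, followed by NAPSA at 31.9, SFTPB at 24.9 and FOXA1 at 23.8. With AL-X in HCC827 the order was NAPSA at 13.8, NKX2-1 at 12.8, FOXA1 at 10.8 and, further down, SFTPB at 1.90. NKX2-1 remained the highest in H1975, at 5.95 with AL-X and 44.6 with DMSO. In A549 it was FOXA2, at 44.0 with AL-X and 18.4 with DMSO. With 1 library per line and treatment, the spread behind these levels is unknown, and neighbours in the order cannot be separated.

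Over the 6 libraries, the log2 levels of the genes were compared by Pearson's r as a description, since the libraries share lines and treatments. NKX2-1 and HOPX had an r of 0.952, NKX2-1 and NAPSA 0.918, and NKX2-1 and SFTPB 0.758. FOXA2 and NAPSA had an r of -0.949. Among 14795 other genes, those most like NKX2-1 were HNMT, with an r of 0.99953, MCTP2, with 0.99811, and CCSER1, with 0.99716. HNMT had 1477 counts with AL-X and 4693 with DMSO in HCC827, 758 with AL-X and 2754 with DMSO in H1975, and 16 with AL-X and 77 with DMSO in A549. Most like FOXA1 were GNG12, GLRB and RASGRF2, and most like SFTPB were PLAAT4, TSPAN1 and BEND6. Most like HOPX were LINC00960, GPSM3 and TMPRSS2, and most like NAPSA were SC5D, FYN and VASH1-AS1. For FOXA2 they were C1QL1, TMEM98 and WHAMMP4, for GATA6 PPP1R3E, SOCS7 and RPP25L, and for SLC34A2 CLCN3P1, SLC22A31 and LINC01806.

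The other surfactant and type 2 genes, a list of 20 symbols, were also mostly lower with AL-X in HCC827. Of the 11 genes of the list considered there, 9 were lower and 0 higher, against the 17.3% and 10.7% of all genes, and 5 of the 9 reached 5 CPM only with DMSO, so that they could be counted only as lower. In A549, 3 of 8 considered were lower (31.8% of all genes), and in H1975, 1 of 7 (17.8% of all genes). In both, 0 were higher, against 29.8% and 15.4% of all genes. SFTPA2, a collectin of surfactant, had 348 counts with AL-X and 7487 with DMSO in HCC827. SFTA3, which lies beside NKX2-1, had 486 with AL-X and 9048 with DMSO in HCC827 and 1665 with AL-X and 4348 with DMSO in H1975. Their across-line log2 folds were -2.76 ± 1.06 and -2.50 ± 0.91 (SE, n = 3 pairs), with edgeR adjusted p-values of 0.257 and 0.239. Their A549 pairs, at 0 counts, hold no information on these folds. CPM, a carboxypeptidase, and ETV5, an ETS factor, stood at the other end, at 0.058 and 0.23. The list had 0 of 12 tested genes past the across-line threshold of edgeR, against 0.157% lower and 0.0983% higher of all genes. At an unadjusted p under 0.05, 3 were lower and 0 higher, against 10.2% and 5.48% of all genes. The median log2 fold was -0.998, against -0.27 for all genes. In the line difference SFTPA2, SFTA3, LAMP3 and CPM were above the mean of the other lines in HCC827, by 9.99, 7.05, 3.25 and 3.13 log2 units, with edgeR adjusted p-values up to 0.0324. Of all genes tested, 4.07% were higher in this comparison. Against H1975 alone, SFTPA2, at 5.61, and CPM, at 2.46, still passed, but SFTA3, at -0.58, and LAMP3, at 1.19, did not (edgeR adjusted p = 0.780 and 0.534). The call on LAMP3 was also lost with library totals (edgeR adjusted p = 0.0518) and with no filter (0.0744). SFTPA2 and SFTA3 had 0 counts in both A549 libraries. These SFTA3 values are those of ENSG00000229415. A further SFTA3 entry, ENSG00000257520, overlaps NKX2-1 on the same strand. That entry had 2 counts with AL-X and 207 with DMSO in HCC827, and 49 with AL-X and 41 with DMSO in H1975. It did not pass the line difference, at 3.98 log2 units (edgeR adjusted p = 0.377).

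Alveolar type 1 genes other than HOPX were a list of 12. Of the 7 considered in HCC827, 5 were lower and 0 higher, against 17.3% and 10.7% of all genes, and 2 of the 5 (RTKN2 and AKAP5) reached 5 CPM only with DMSO. In A549, 3 of 6 were lower and 1 higher, against 31.8% and 29.8% of all genes, and 2 of the 3 reached 5 CPM only with DMSO. In H1975, 1 of 6 was lower and 1 higher, against 17.8% and 15.4%. AKAP5, an anchoring protein of kinase A, had 14 counts with AL-X and 742 with DMSO in HCC827, 15 with AL-X and 411 with DMSO in H1975, and 0 with AL-X and 247 with DMSO in A549. AGER, the receptor for advanced glycation end products, had 26 with AL-X and 402 with DMSO in HCC827, 17 with AL-X and 275 with DMSO in H1975, and 19 with AL-X and 212 with DMSO in A549. Both were lower in all 3 lines. Their edgeR adjusted p-values across the lines were 0.0983 and 0.182, so neither passed. CAV2, a caveolin, and GPRC5A stood at the other end, with across-line log2 folds of 1.15 and 0.20. SCEL was higher in HCC827 by 4.02 log2 units in the line difference (edgeR adjusted p = 0.0016), but by 0.18 against H1975 alone (edgeR adjusted p = 0.929). In A549 it had 19 counts with AL-X and 24 with DMSO.

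**Figure D4:**
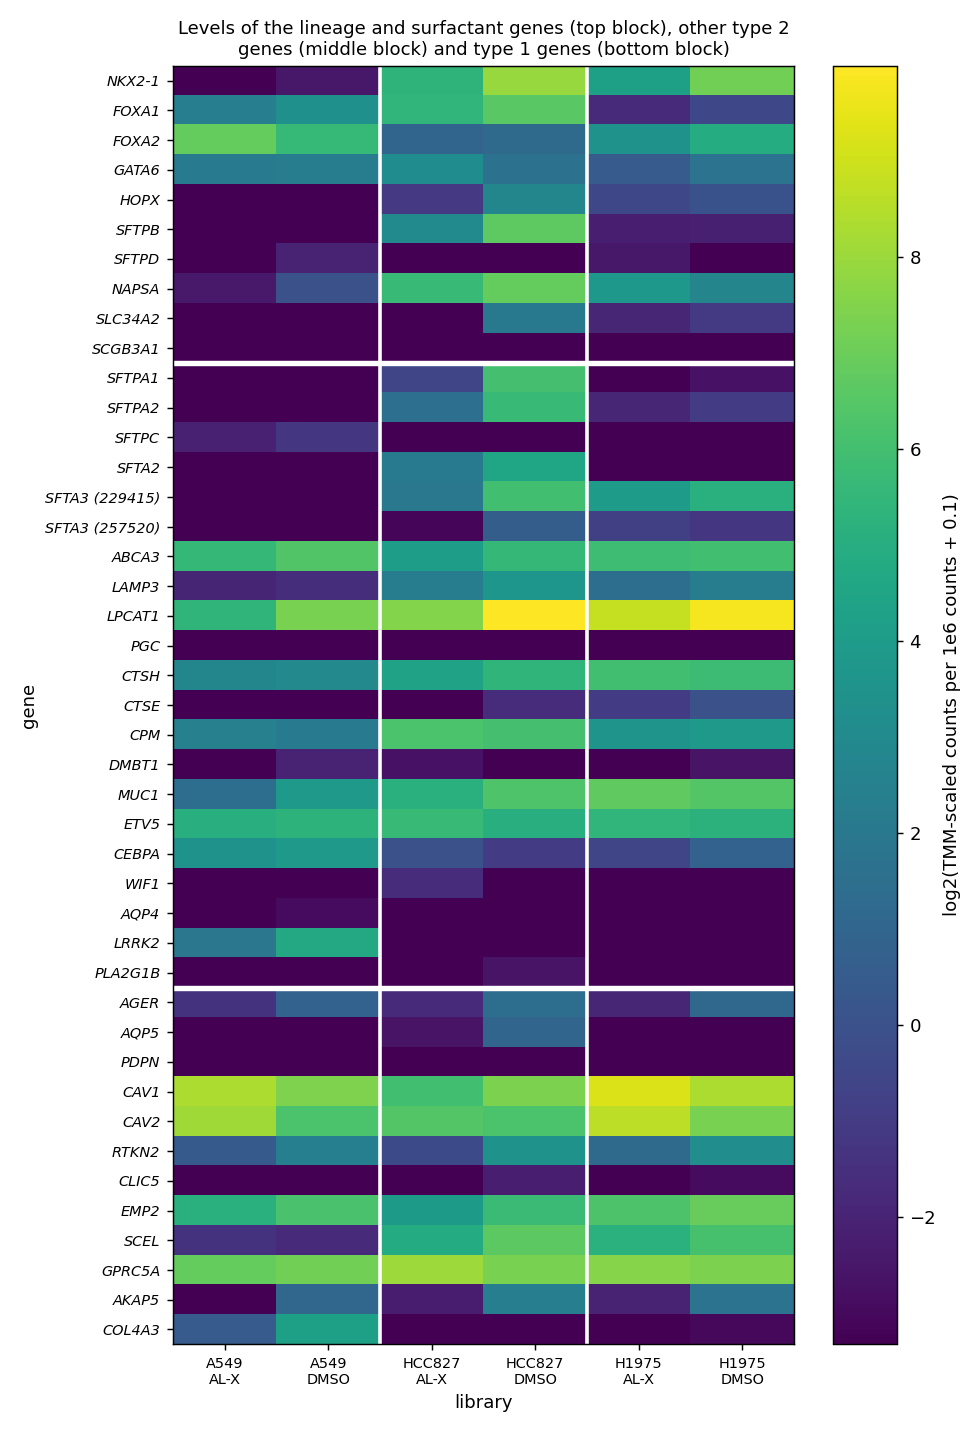
Log2 levels, as TMM-scaled counts per 1e6 with 0.1 added, of the 10 genes (top block) and of all genes of the type 2 list (middle) and type 1 list (bottom) in the 6 libraries, with AL-X left of DMSO in each line. SFTPB, SFTPA1 and SFTPA2 are bright in the DMSO library of HCC827 and dark in both A549 libraries. MUC1, a gene of the type 2 list, has counts in all 6 libraries. By the 2-fold rule it is lower with AL-X in HCC827 and A549 but not in H1975.

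General epithelial markers differed by less than 2-fold in HCC827. Of the 9 markers, all considered there, 0 were lower and 0 higher by the 2-fold rule, against 17.3% and 10.7% of all genes. Their median log2 fold was -0.41, against -0.075 for all genes tested, and EPCAM had 23677 counts with AL-X and 42835 with DMSO, a log2 fold of -0.62. In A549, 2 of 5 considered were lower and 1 higher, against 31.8% and 29.8% of all genes. In H1975, 0 of 9 were lower and 1 higher, against 17.8% and 15.4%. Airway genes, a list of 21, had 5 of 6 considered lower in HCC827, 3 of 5 in A549 and 1 of 1 in H1975, with 0 higher, against 17.3%, 31.8% and 17.8% of all genes lower. Of all genes, 10.7%, 29.8% and 15.4% were higher. In HCC827, 4 of the 5 (MUC5B, SPDEF, TP63 and SOX2) reached 5 CPM only with DMSO. SOX2, the factor of the proximal airway, had 86 counts with AL-X and 5988 with DMSO in HCC827, with an across-line log2 fold of -4.44 ± 1.07 (SE, n = 3 pairs) and an edgeR adjusted p of 0.120. SPDEF, a factor of goblet cells, had 49 counts with AL-X and 968 with DMSO in HCC827 and an across-line log2 fold of -4.32 ± 0.93 (SE, n = 3 pairs; edgeR adjusted p = 0.0909). In the line difference, SOX2 was higher in HCC827 by 4.99, SOX9 lower at -3.79 and MUC5AC lower at -3.72, with edgeR adjusted p-values up to 0.0359. Against A549 alone SOX2 was at 2.39 and did not pass (edgeR adjusted p = 0.319), and MUC5AC was at 0 to 4 counts in H1975, so that its difference rests on A549. With library totals the calls on MUC5AC and SOX9 were lost (edgeR adjusted p = 0.0907 and 0.0608), and with no filter that on MUC5AC (0.116). SOX9 and TMEM45A had the highest across-line log2 folds among airway genes with a mean of at least 1 CPM, at -0.06 and -0.71.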

How the data were processed

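Poly(A) RNA was sequenced from 3 cell lines with AL-X or DMSO. Per the labels' protocols, Trizol was used for extraction and a SureSelect mRNA kit for the libraries. The submitters' processing notes name bcl2fastq 2.20 and GRCh38. No source used here gives the aligner, counter, annotation release or strand setting. The authors deposited raw counts per Ensembl gene, without normalization, for 60671 genes and 6 libraries. Symbols matched 60401 gene identifiers, and positions and merged exon lengths are those of GENCODE 29, which holds 58453 of them.

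The 10 genes and the other lists were chosen with earlier results of these data known, so they give no independent support. The test was that of edgeR 4.0.16, run in R 4.3.3 (TMM, filterByExpr by treatment, robust quasi-likelihood test, cell line as block, 20344 genes, 2 residual degrees of freedom), with Benjamini-Hochberg adjustment over all genes at 0.05. The line difference, HCC827 minus the mean of A549 and H1975, is a contrast of that fit, and the response difference an interaction fit with 1 residual degree of freedom. SEs come from the fold and its F value. The cell line tag pairs the libraries: same-line deviations from the treatment means correlated at 0.656, 0.521 and 0.694. Nothing says that libraries of a line came from separate experiments, so a p-value covers the spread between these 6 libraries, which may be technical.

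Within-line log2 folds used a prior count of 2. Exact binomial (Clopper-Pearson) 95% intervals and the floor of 3 counts hold counting error alone, as reads need not be separate molecules. From the other lists, genes at adjusted p under 0.05 in any edgeR test were named, with up to 2 from either end by across-line fold among those with a mean of at least 1 CPM. Some genes that this rule names are not reported here. For likeness, the 3 genes with the highest r were named for each gene with a test. EPCAM, RTKN2, MUC5B, TP63, FGA, FGB, MUC1, SFTPA1, HNF4A, NKX2-1-AS1, GATA6-AS1, LINC00261, NR1H2, KRT7, KRT8, KRT18, PTPRC and CD3E were named after their values were seen. Alternatives were DESeq2 size factors, library totals, no filter, 1 CPM in 3 libraries, no robust shrinkage, DESeq2 1.42.0, limma-voom (limma 3.58.1), no block, a prior count of 0.5 and each line left out. Leaving out lines in the line difference and response differences centred on A549 or H1975 were added after seeing the data.

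The fits were tested on simulated counts. In the across-line test on 19180 genes, 26.9%, 98.5% and 100% of genes changed by 2, 4 and 6 log2 units were recovered. In the line difference (18111 genes) 34.3%, 92.5% and 98.5% were recovered, and in the response difference (18802 genes) 1.49%, 11.9% and 64.6%. Unchanged genes were called too, 29 in the across-line test, 91 in the line difference and 8 in the response difference. In each test the genes changed by 2, 4 and 6 log2 units numbered 67, 67 and 65. The unchanged genes were thus in each test a larger share of all calls than the 0.05 set for the adjusted p. That share was largest in the line difference. Only genes with a mean of at least 5 CPM were changed, a level that GATA6, HOPX and SLC34A2 did not reach.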

Additional observations from a re-analysis of the deposited data

Results flagged for a closer look

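FOXA2, GATA6, SFTPD and NAPSA moved in opposite directions with AL-X in different lines. FOXA2 had a log2 fold of 1.26 in A549, against -0.27 in HCC827 and -1.37 in H1975. The response in A549 minus that shared by the other lines was 2.09 ± 0.97 log2 units (SE), with an edgeR adjusted p of 0.417. For GATA6 the log2 fold was 1.46 in HCC827 and -1.25 in H1975, and the test of the HCC827 difference is given above (edgeR adjusted p = 0.783). NAPSA had a log2 fold of 1.02 in H1975, against -3.09 in A549 and -1.21 in HCC827. Its response in H1975 minus that shared by the others was 3.16 ± 1.56 log2 units (SE), with an edgeR adjusted p of 1.0. The response of NAPSA in A549 minus that shared by the others was -3.20 ± 1.19 (SE), with an edgeR adjusted p of 0.266. For SFTPD the log2 fold with a prior count of 2 was 2.47 in H1975, from 8 counts with AL-X and 0 with DMSO, and -3.17 in A549, from 0 counts with AL-X and 17 with DMSO. The difference for SFTPD was not tested, because the gene did not pass the filter on low counts. None of these genes passed a test of the difference.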

How the results depend on the processing

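The sign of every within-line fold of the 10 genes was kept under every scaling and prior count tried, while the size moved by more than its counting interval in 11 cases, all of them with library totals. The count of genes past the across-line threshold, 52, was 0 with library totals (2792 at an unadjusted p under 0.05), 0 with no filter (3352 unadjusted), 12 without mitochondrial genes, 1986 with DESeq2 and 661 with limma-voom, and ranged from 106 to 184 with 1 line left out. Cell lines paired the libraries, and without the replicate block 0 genes passed with edgeR (1722 unadjusted). For the line difference, 1140 genes became 649 with library totals, 584 with no filter, 2645 with DESeq2 and 1850 with limma-voom, and 1452 to 1766 with A549 or H1975 left out. The response difference, 53 genes, became 0 with library totals (1488 unadjusted) and 0 with no filter (1588 unadjusted). Across the lines FOXA2 changed sign to 0.033 with limma-voom and 0.68 without the block, and GATA6 to -0.49 with library totals, -0.11 with no filter and -0.0056 with 1 CPM in 3 libraries. With 1 line left out, FOXA2 ranged from -0.78 to 0.50 (without H1975) and GATA6 from -0.75 (without HCC827) to 0.65. Other sign changes were SLC34A2 in the line difference without A549, at -0.12, and with library totals the response differences of FOXA2, at 0.62, and NAPSA, at 0.47. The line difference of HOPX lost its call with library totals (edgeR adjusted p = 0.0696) and no filter (0.120). The causes were not tested. Depth limits SFTPD, SCGB3A1 and, in A549, HOPX, SFTPB and SLC34A2, where counts were 0 to 17.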

Other observations

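Other lung and endoderm transcription factors, a list of 26, did not move one way. In A549, 8 of 17 considered were higher and 8 lower with AL-X, in HCC827 1 of 16 higher and 7 lower, and in H1975 2 of 11 higher and 5 lower. Of all genes considered, 29.8% were higher and 31.8% lower in A549, 10.7% and 17.3% in HCC827, and 15.4% and 17.8% in H1975. Of those called lower, 6 of 8 in A549, 2 of 7 in HCC827 and 1 of 5 in H1975 reached 5 CPM only with DMSO, and of those called higher in A549, 3 of 8 only with AL-X. NFIB, a nuclear factor I protein of lung maturation, was the one gene of the list past the across-line threshold. Its counts were 525 with AL-X and 11358 with DMSO in A549, 1666 with AL-X and 10802 with DMSO in HCC827, and 875 with AL-X and 7617 with DMSO in H1975. NFIB fell by 2.95 ± 0.52 log2 units (SE, n = 3 pairs; edgeR adjusted p = 0.0428). DESeq2 and limma-voom called it too (adjusted p = 5.2e-06 and 0.0072). With edgeR the call was lost with library totals (adjusted p = 0.194), no filter (0.250), mitochondrial genes left out (0.0673), no block (0.570), without HCC827 (0.0511) and without H1975 (0.0873), at log2 folds of -2.93 to -3.37. ID2, an inhibitor of helix-loop-helix factors, had the highest fold of the list, with 332211 counts with AL-X and 5034 with DMSO in A549, 6096 with AL-X and 1841 with DMSO in HCC827, and 21681 with AL-X and 922 with DMSO in H1975, but did not pass (4.64 ± 1.10, SE, n = 3 pairs; edgeR adjusted p = 0.115). HHEX had an across-line log2 fold of 1.96 and EHF one of -4.04, with edgeR adjusted p-values of 0.273 and 0.0567. In the line difference FOXP2 and HNF4G were higher in HCC827, by 8.53 and 7.15 log2 units, with edgeR adjusted p-values up to 0.0011, and each also passed against A549 alone and H1975 alone. GRHL2 and TBX3 passed at 8.08 and 5.69 log2 units, with edgeR adjusted p-values up to 0.0122, but each against 1 line at 0 counts. GRHL2 was at 0 in A549 and differed from H1975 alone by 0.44 (edgeR adjusted p = 0.777), and TBX3 was at 0 in H1975 and stood at -2.66 against A549 alone (edgeR adjusted p = 0.111). The call on TBX3 was also lost with no filter (edgeR adjusted p = 0.0608). HNF4A, a factor of liver and gut, was counted in A549 alone, with 54 counts with AL-X and 2864 with DMSO.

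Gastric, intestinal and liver genes known from lung tumours without NKX2-1 were a list of 17, of which 7 were tested. In A549, 4 of 5 considered were lower with AL-X and 0 higher, against 31.8% and 29.8% of all genes. In HCC827 2 of 2 were lower, against 17.3% of all genes. Of these, FGA, FGB and FGG in A549 and VIL1 and PIGR in HCC827 reached 5 CPM only with DMSO, so that they could be counted only as lower. CPS1, the first enzyme of the urea cycle, had 760 counts with AL-X and 58665 with DMSO in A549. FGG, a fibrinogen chain, had 8 with AL-X and 756 with DMSO in A549, and PIGR, the receptor for polymeric immunoglobulin, 157 with AL-X and 4122 with DMSO in HCC827. Across the lines FGG had a log2 fold of -6.22 and PIGR of -3.69, with edgeR adjusted p-values of 0.0993 and 0.150, against 0.51 for CDH17 and -2.02 for VIL1. In the line difference PIGR was higher in HCC827 by 6.59 and CPS1 lower at -5.30 log2 units, with edgeR adjusted p-values up to 0.0041. Against H1975 alone CPS1 was at -2.24 and did not pass (edgeR adjusted p = 0.402).

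Neighbouring genes did not always follow the lineage gene beside them. LINC00261, the long noncoding RNA next to FOXA2, had 58 counts with AL-X and 1147 with DMSO in A549, where FOXA2 was higher with AL-X. In H1975 LINC00261 had 96 with AL-X and 526 with DMSO, and in HCC827 31 with AL-X and 35 with DMSO. NR1H2 overlaps NAPSA on the opposite strand but shares 0 exonic bases with it. After TMM scaling it was higher with AL-X throughout, at a log2 fold of 0.98 in A549, with 0.60 for H1975 and 0.29 for HCC827. The fold in A549 rests on that scaling. There NR1H2 had 8148 of 121552821 counts with AL-X and 7459 of 110445983 with DMSO.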
